A study of Mus musculus with 8 samples.

Results

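The baseline transcriptome of the unmutated mouse lung at E13.5 (embryonic day) was read from the 4 control libraries of a series of 8. All genes of the deposited table were used. The 4 libraries carried the genotype that the labels write as cre control. The labels do not say which cre transgene the controls carried, and give no strain, sex, inducer or number of embryos per library. The series also held 4 lungs with Tbx4tetOcre and MyrfE6, which were not used here, and its title names MYRF and mesothelium as its subject. The labels do not say whether the 4 libraries came from separate embryos or litters, so the spread given here is that between these libraries and may be technical. With 1 group there was nothing to test, and genes are described by their levels and by whether their ranges over the 4 libraries overlap.

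At this age the mouse lung is a branching organ. Its epithelium, which descends from the foregut endoderm, forms tubes whose tips keep dividing and splitting, while the stalks behind them begin to form airways. The tubes lie in a mesenchyme that gives rise to smooth muscle, fibroblasts and the support cells of vessels, and the surface is covered by mesothelium. These layers exchange secreted signals, above all of the FGF, WNT, Hedgehog, BMP and retinoic acid families, whose ligands are often made in a different layer from their receptors. RNA from whole lung mixes all of these cells. Fewer cells of a type and less RNA per cell cannot be told apart in such libraries.

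Levels are given as TPM, that is transcript abundance as counts per base of exon scaled to the same sum in each library, so that genes of different length can be compared. Every value written with ± is a mean and SD over the 4 libraries, and 4 values in a row belong to replicates 1 to 4. Replicates 1 to 4 held 19032389, 17847958, 17799899 and 17804975 counts. At these depths, 3 counts for a gene with 2000 bases of exon corresponded to 0.272 to 0.294 TPM, a floor that covers counting error only. Of 55401 genes in the table, 15008 reached at least 1 TPM in all 4 libraries. Among 21897 protein-coding genes the number was 12787, or 58.4%, and this share is the background for the counts of listed genes below. Mitochondrial genes held 4.66% ± 0.185 of TPM, hemoglobin genes 1.22% ± 0.087 and 83 ribosomal protein genes 11.9% ± 0.216.

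To show the sequence in front of genes that the results turn on, promoter windows were read from RefSeq (build GRCm38.p6). Each window holds the 250 bases before the RefSeq start of the gene, printed 5′ to 3′ on the gene's own strand, with every CG dinucleotide (CpG) in capitals. The set covers an epithelial regulator, a mesenchymal regulator, a mesenchymal collagen, a mesothelial marker, a Hedgehog receptor component, a HOX gene, an embryonic globin and, as a gene near 0 in lung, albumin. The window of Nkx2-1 is chr12:56536909-56537158 on the minus strand and that of Tbx4 is chr11:85896515-85896764 on the plus strand, where the RefSeq start lies inside the gene as the table draws it. Col3a1 is at chr1:45311288-45311537 and Upk3b at chr5:136038246-136038495, both on the plus strand. Smo is at chr6:29735247-29735496 on the plus strand and Hoxa5 at chr6:52204588-52204837 on the minus strand. Hbb-y is at chr7:103853208-103853457 on the minus strand and Alb at chr5:90460620-90460869 on the plus strand.
Nkx2-1: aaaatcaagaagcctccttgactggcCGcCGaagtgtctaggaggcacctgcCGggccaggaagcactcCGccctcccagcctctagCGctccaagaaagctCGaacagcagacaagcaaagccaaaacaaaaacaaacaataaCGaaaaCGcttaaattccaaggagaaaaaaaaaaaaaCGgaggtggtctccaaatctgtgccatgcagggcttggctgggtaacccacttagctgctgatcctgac
Tbx4: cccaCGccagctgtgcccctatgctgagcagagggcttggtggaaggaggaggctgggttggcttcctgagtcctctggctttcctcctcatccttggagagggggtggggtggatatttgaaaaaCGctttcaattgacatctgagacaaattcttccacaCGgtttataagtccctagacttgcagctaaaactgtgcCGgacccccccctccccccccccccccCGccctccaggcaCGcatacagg
Col3a1: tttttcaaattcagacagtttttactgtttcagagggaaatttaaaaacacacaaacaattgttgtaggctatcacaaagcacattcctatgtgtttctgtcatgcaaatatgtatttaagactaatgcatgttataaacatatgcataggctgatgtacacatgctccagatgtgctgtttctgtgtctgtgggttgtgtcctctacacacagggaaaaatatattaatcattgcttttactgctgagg
Upk3b: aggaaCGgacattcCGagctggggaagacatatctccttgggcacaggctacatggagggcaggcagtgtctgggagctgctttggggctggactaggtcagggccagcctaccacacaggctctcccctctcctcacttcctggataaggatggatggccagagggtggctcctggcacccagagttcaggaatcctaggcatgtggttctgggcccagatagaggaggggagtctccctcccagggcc
Smo: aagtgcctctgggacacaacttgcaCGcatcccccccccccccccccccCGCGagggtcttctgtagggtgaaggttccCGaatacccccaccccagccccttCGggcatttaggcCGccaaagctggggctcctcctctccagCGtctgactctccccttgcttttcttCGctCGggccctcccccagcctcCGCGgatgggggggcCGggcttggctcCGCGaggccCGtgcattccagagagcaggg
Hoxa5: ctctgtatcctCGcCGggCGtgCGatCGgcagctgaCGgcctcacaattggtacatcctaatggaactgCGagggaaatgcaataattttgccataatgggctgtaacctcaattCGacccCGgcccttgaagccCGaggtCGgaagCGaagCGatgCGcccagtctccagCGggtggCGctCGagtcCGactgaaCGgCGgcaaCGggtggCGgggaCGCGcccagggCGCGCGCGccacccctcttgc
Hbb-y: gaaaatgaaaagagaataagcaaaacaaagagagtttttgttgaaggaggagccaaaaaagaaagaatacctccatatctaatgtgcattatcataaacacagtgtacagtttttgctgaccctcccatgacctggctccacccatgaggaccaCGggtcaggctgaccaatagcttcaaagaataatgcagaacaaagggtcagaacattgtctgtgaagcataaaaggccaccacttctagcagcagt
Alb: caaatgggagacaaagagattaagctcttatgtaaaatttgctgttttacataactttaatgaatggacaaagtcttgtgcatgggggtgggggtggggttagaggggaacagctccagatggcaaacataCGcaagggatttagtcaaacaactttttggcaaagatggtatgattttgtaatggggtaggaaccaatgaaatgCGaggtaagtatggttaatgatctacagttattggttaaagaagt

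The windows differed widely in CpG content. Hoxa5 had 28 CpG, more than 91.2% of all matched windows held, and Smo had 15. Nkx2-1 had 9 and Tbx4 had 6. The windows of the structural and secreted products were poorer, with 2 in Upk3b, 2 in Alb, 1 in Hbb-y and 0 in Col3a1. Across the 13817 of 21842 protein-coding genes that matched a single window, the median number of CpG was 1 in the 3176 genes without a count in any control library. It was 5 under 1 TPM, 12 from 1 to 10 TPM, 17 from 10 to 100 TPM, 18 from 100 to 1000 TPM and 18 in the 60 genes at 1000 TPM and over. The letters TATAAA, searched on both strands of the 250 bases, were found in 28.9% of the windows of genes without a count, in 5.15% of those from 10 to 100 TPM and in 12.7% of all matched windows. The median GC content was 42.0% in the windows without a count and 60.8% in those from 10 to 100 TPM. TATAAA holds no G or C, and the part of base composition in its shares was not tested. Among the printed windows, that of Col3a1 held these letters as printed and that of Tbx4 on the opposite strand alone. On the gene's own strand between 40 and 20 bases before the start, TATAAA was found in 6.3% of genes without a count, in 0.688% of genes from 10 to 100 TPM and in 2.97% of all matched genes. None of the printed windows held it there. Col3a1 and Hbb-y, at 997 ± 51.6 and 5468 ± 335 TPM, were thus high in level with windows poor in CpG, while Alb, with 2 CpG, had a level of 2.21 ± 1.61 TPM.

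The 20 genes with the highest mean held 12.07% ± 0.18 of TPM. Eef1a1, the elongation factor that brings aminoacyl-tRNA to the ribosome, led with 13089, 13110, 12887 and 12657 TPM, followed by mt-Co1, a subunit of cytochrome oxidase, with 13000, 12613, 13077 and 12876 TPM. These 2 ranges overlap. Of the 20, 6 were ribosomal protein genes, 5 mitochondrial genes and 2 hemoglobin genes. The ribosomal group was led by Rplp1 at 8118 ± 252 TPM and the mitochondrial group, after mt-Co1, by mt-Cytb at 11416 ± 464 TPM and mt-Nd1 at 9197 ± 418 TPM. The imprinted long noncoding RNA H19 ranked sixth with 6033, 6511, 5970 and 5908 TPM. Ptma, a small acidic nuclear protein of growing cells, stood beside it at 5971 ± 72.3 TPM. Gm10736, a processed pseudogene of 78 bases, reached 5429 ± 558 TPM from 1835 to 2392 counts per library, a level that rests on its short length. Protein-coding genes held 94.8% of TPM, lincRNA genes 1.12% and processed pseudogenes 1.91%. Only 98 genes reached 1000 TPM in all 4 libraries, and the median over all protein-coding genes was 4.79 TPM.

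Marker genes of 18 cell types or states were read as lists, and 159 of their 204 genes reached 1 TPM in all 4 libraries. Lists differ in length and in the choice of genes, so their sums are not amounts of cells. The sums spanned from 11626 to 13576 TPM for red blood cells down to 3.07 to 10.2 TPM for liver. Lung mesenchyme, shared epithelium, smooth muscle, blood vessel endothelium and the cell cycle list each had every gene above 1 TPM.

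**Figure D1:**
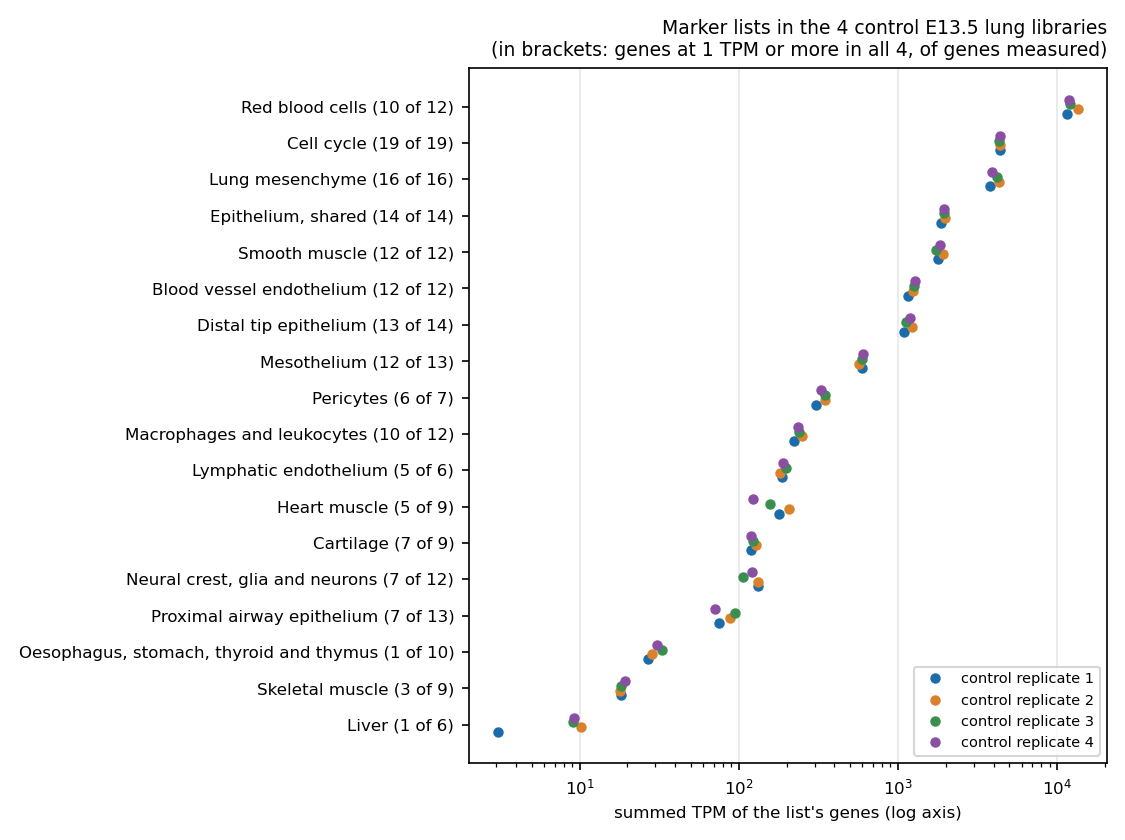
Summed TPM of each marker list (log axis) in each of the 4 control libraries, 1 point per library. Red blood cells lie at 11626 to 13576 TPM, mesothelium at 572 to 604 TPM, and the liver list at 3.07 TPM in replicate 1 against 9.13 to 10.2 TPM in the other libraries.

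Genes shared by all lung epithelium were present in full, with 14 of 14 genes above 1 TPM and a sum of 1873 to 1989 TPM. Cldn6, a tight junction claudin of embryonic epithelia, was the highest with 387, 388, 386 and 389 TPM, a spread of only 1.23 TPM (SD). Epcam, the adhesion molecule used to sort epithelium, had 296, 293, 286 and 294 TPM. Both lay above the ranges of all other genes of the list. Nkx2-1, the homeodomain factor that marks lung and thyroid endoderm, measured 189, 223, 219.9 and 221 TPM, so replicate 1 lay below the other libraries. The keratin pair Krt8 and Krt18 had 199.5 ± 11.9 and 183 ± 7.19 TPM with overlapping ranges. The forkhead factors Foxa2 and Foxa1, which act with Nkx2-1 in foregut endoderm, had 73.7 ± 6.02 and 70.4 ± 1.72 TPM. Pax8 and Foxe1, which thyroid expresses together with Nkx2-1, had no count in any of the 4 libraries, which allows up to 0.0971 and 0.21 TPM.

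The distal tip list had a higher sum than the proximal airway list. Both also hold genes of mature cells, so the sums do not rank tip against stalk. In the distal tip list 13 of 14 genes passed 1 TPM, with a sum of 1092 to 1220 TPM, against 7 of 13 genes and 71.5 to 95.3 TPM in the proximal airway list. Etv5, an ETS factor induced by FGF, led the tip list with 317, 335, 322 and 318 TPM. Sftpc, the surfactant protein gene already used by tip cells, followed with 216, 280.3, 251 and 304 TPM and varied more, from replicate 1 at the bottom to replicate 4 at the top. The tip regulators Sox9, Mycn and Etv4 had 46.4 ± 3.59, 63.4 ± 5.48 and 33.8 ± 1.89 TPM. Id2, Bmp4 and Lpcat1 had 146 ± 9.02, 98 ± 5.13 and 76.3 ± 2.9 TPM, and both Id2 and Bmp4 are also made outside the epithelium. For the other genes of the list too, whole-lung RNA does not show how much came from tip cells. Genes of later alveolar cells were uneven: Ager, the marker of flat alveolar cells, had 44.7 ± 3.94 TPM and Sftpb 31.3 ± 3.9 TPM, while Lamp3 had 3.33 ± 0.471 TPM and Napsa 1.16 ± 0.26 TPM.

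In the airway list, Sox2, the factor of the stalk epithelium, measured 22.1, 21.7, 25.3 and 22.7 TPM, below every library's value of Sox9. Since the RNA mixes all cells of the lung, this does not compare stalk with tip. The secretory precursor gene Scgb3a2 gave 14.6, 22.5, 18 and 9.94 TPM, a range of more than 2-fold. Genes of mature airway cells ranged from a few TPM to 0. Foxj1, the regulator of multiciliated cells, had 2.08 ± 0.38 TPM and was above 1 TPM in every library. Of basal cell genes, the factor Trp63 had 0.384 ± 0.0921 TPM and the keratin Krt15 9.92 ± 2.01 TPM. The basal keratin Krt5 measured 0.165, 0.715, 7.31 and 0.619 TPM, high in replicate 3 alone. The club cell gene Cyp2f2 had 0.407 ± 0.283 TPM. Scgb1a1, the main secretory product of adult club cells, had 0 counts in all 4 libraries, which allows up to 1.24 TPM.

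The list for mesothelium, the subject of the series, had a sum of 572 to 604 TPM, and 12 of 13 of its genes passed 1 TPM. Whole-lung RNA does not show which cells made these transcripts, so the sum is not the share of mesothelium. A few genes set most of it. Nkain4, a membrane protein that interacts with the sodium pump, measured 149, 134, 136 and 145 TPM. Aldh1a2, which makes retinoic acid, had 133, 117, 129.8 and 134 TPM, a range that overlaps that of Nkain4. Upk3b, a uroplakin of the mesothelial surface, had 83, 87.3, 91.6 and 84.2 TPM and lay apart from both. Calb2, which encodes the calcium-binding protein calretinin, had 56.9 ± 5.69 TPM, and Krt19, which the epithelium list also holds, 72.5 ± 7.42 TPM.

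Myrf encodes a membrane-bound transcription factor whose N-terminal part is released by self-cleavage and enters the nucleus. It was present in every control library, with 45.5, 46.9, 43.3 and 48.5 TPM and a mean of 46.1 ± 2.21 TPM. Its exons span positions 10208272 to 10240748 of chromosome 19 in GRCm38. The gene is read from the minus strand and shares no exon base with another gene on that strand. Its level stood above the median of the protein-coding genes that passed 1 TPM in all 4 libraries, which was 25.7 TPM. Its relative Myrfl had 9 counts over the 4 libraries and 0.139 ± 0.178 TPM. The mesothelial transcription factors were lower than Myrf in every library, with Wt1 at 11.4, 9.82, 11.4 and 11.4 TPM, Bnc1 at 4.8 ± 0.538 TPM and Tbx18 at 2.5 ± 0.343 TPM. Upk1b, the partner uroplakin, gave 12.9, 10.9, 23.1 and 17.6 TPM and was highest in replicate 3. Msln, the gene of mesothelin and a marker of mature mesothelium, had 0.709, 0.833, 1.09 and 0.634 TPM and was the 1 gene of the list that missed 1 TPM in all 4.

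Lung mesenchyme was the largest of the non-blood lineage lists, with a sum of 3789 to 4355 TPM. Fibrillar collagen made up most of it. Col1a1 measured 916, 1337, 1179 and 1037 TPM, with replicate 2 at the top and replicate 1 at the bottom, and its partner chain Col1a2 had 449, 530.3, 493 and 451 TPM with the same libraries at the ends. Col3a1 had 966, 1064, 1009 and 949 TPM. Tbx4, the T-box factor that marks lung mesenchyme and is named in the cre of the mutant label, had 282, 274, 278 and 271 TPM, with an SD of 1.79% of its mean. Foxf1, the forkhead factor induced by Hedgehog in splanchnic mesoderm, had 273, 240.1, 274 and 289.9 TPM, and its range overlaps that of Tbx4. Hoxa5 and Wnt2 had 183 ± 11.5 and 177 ± 5.07 TPM. Tcf21 and Tbx5, regulators of visceral mesoderm and of the heart and lung fields, had 159.8 ± 8.95 and 152 ± 9.52 TPM. Pdgfra, a receptor of mesenchymal progenitors, had 45.9 ± 2.08 TPM and Fgf10, the branching signal, 22.3, 26.4, 27.2 and 21.8 TPM. Twist1 was the lowest gene of the list, with 1.89, 1.57, 5.42 and 1.31 TPM, and its mean of 2.55 TPM became 1.59 TPM without replicate 3.

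The contractile genes of smooth muscle were all measured above 1 TPM and summed to 1751 to 1916 TPM. Acta2, the alpha actin of smooth muscle, led with 781, 849.9, 744 and 802 TPM, and the enteric gamma actin Actg2 had 318, 336, 300.5 and 331 TPM. Tagln had 186 ± 4.82 TPM and Myh11, the smooth muscle myosin heavy chain, 96.8 ± 2.51 TPM. Myocd, the coactivator that switches on this program, was the lowest of the list at 4.99 ± 0.621 TPM. Pericyte genes were led by Notch3 with 132, 152, 149 and 137 TPM and Pdgfrb with 127, 138, 136 and 137 TPM, whose ranges overlap. Rgs5 followed at 31.2 ± 3.9 TPM and Cspg4 at 11.2 ± 1.14 TPM, while Higd1b, a marker of adult lung pericytes, had 6 counts in all and 0.342 ± 0.14 TPM.

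Blood vessel endothelium summed to 1166 to 1278 TPM over 12 genes. Cdh5, the cadherin of endothelial junctions, measured 195, 222, 230.4 and 216 TPM. Plvap, Cldn5 and Egfl7 had 179 ± 12.9, 178 ± 20.1 and 170.0 ± 9.63 TPM, with ranges that overlap each other. The VEGF receptor Kdr had 42.4 ± 1.37 TPM and the ETS factor Erg 34.7 ± 0.904 TPM. For lymphatic endothelium, 5 of 6 genes passed 1 TPM. The chemokine Ccl21a had 74.3, 62.5, 81.5 and 73.3 TPM, Lyve1 56.1 ± 2.92 TPM and Flt4, the receptor for VEGF-C, 23.6 ± 1.47 TPM. Prox1, the factor that defines lymphatic fate, was low at 2.57, 2.6, 2.52 and 1.99 TPM.

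Blood lineages differed in scale. The red blood cell list was led by 6 globin genes. Hbb-y, an embryonic beta-like globin, measured 5720, 5055, 5336 and 5761 TPM and lay above all others as counted. Reads that map to several places were not counted, so adult genes with near-identical copies, such as Hba-a1 and Hba-a2, may be listed too low. The order of embryonic and adult globins is therefore uncertain, and the part of such reads in Hbb-bs and Hbb-bt was not tested. The adult-type genes Hba-a1 and Hbb-bs had 3062, 4533, 3270 and 3355 TPM and 1441, 2400, 1926 and 1414 TPM, both highest in replicate 2. The embryonic genes Hbb-y, Hba-x and Hbb-bh1 were all lowest in replicate 2, the last with 31, 27.9, 29.1 and 40.6 TPM. Klf1, the erythroid regulator, had 1.33 ± 0.769 TPM. In macrophages, C1qb had 39.3, 47.8, 41.4 and 36.4 TPM, Cd68 39, 42, 40.7 and 41.9 TPM and Csf1r, the receptor that macrophages need, 19.4 ± 0.814 TPM, each in all libraries. Ptprc, the general leukocyte antigen, had 170 counts over the 4 libraries and 0.445 ± 0.0214 TPM, and the granulocyte gene Mpo had 0.748 ± 0.362 TPM.

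Genes of the nerve and cartilage lists were mostly low, with list medians of 2.49 and 6.2 TPM, but a few were not. Ednrb led the neural crest list with 97.9, 101, 79 and 93.3 TPM, but endothelium and mesenchyme can also express this receptor. The glial factor Sox10 had 3.79 ± 0.21 TPM. Neuronal Tubb3 and Stmn2 had 6 ± 1.91 and 4.28 ± 0.711 TPM, with replicate 1 the highest library for both. Cartilage collagens stood at 52 ± 1.84 TPM for Col2a1 and 26.4 ± 0.9 TPM for Col11a2, whereas Acan and Matn1, of mature cartilage, had 0.217 ± 0.0351 and 0.0452 ± 0.0905 TPM. Cartilage of this stage surrounds the trachea and main bronchi, and the labels do not say whether these were dissected with the lung.

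Markers of neighbouring organs were mostly low. In the heart muscle list, Actc1 had 138, 171, 109 and 103 TPM, Myl7 29.1, 23.6, 34.2 and 11.5 TPM and Myl4 6.75, 5.46, 5.2 and 3.23 TPM, each lowest in replicate 4, while Nkx2-5 and Nppa had 0.167 ± 0.145 and 0.0567 ± 0.113 TPM. Cardiac myocytes around the pulmonary veins belong to the mouse lung and express several of these genes. Of 9 skeletal muscle genes, 3 passed 1 TPM, led by Mylpf with 8.88 ± 0.989 TPM, and Myod1 had 0.284 ± 0.263 TPM. Liver genes were led by Afp with 1.99, 4.31, 5.47 and 4.04 TPM and Alb with 0.309, 4.02, 1.59 and 2.9 TPM. Replicate 1 was the lowest library for both, and Serpina1a had 0 counts in all 4. In the list for oesophagus, stomach, thyroid and thymus, Tbx1 alone passed 1 TPM in all 4 libraries, with 25.9, 26.2, 30.1 and 28.1 TPM. It held 92.4% of the list's sum. Whether its transcripts came from the lung itself or from another organ cannot be told from these libraries. Barx1, the stomach mesenchyme factor, had 1.7 ± 0.717 TPM, and Cdx2, of intestine, had 0 counts. The part of these lists in the levels of lung genes was not tested.

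Cell cycle genes were high and steady between libraries. All 19 passed 1 TPM, and their sum ranged from 4343 to 4408 TPM, the narrowest relative range among these lists. Pcna, the sliding clamp of DNA replication, had 494, 479, 469.9 and 486 TPM. The replicative helicase subunits ran from 148 ± 2.49 TPM for Mcm2 to 326 ± 10.3 TPM for Mcm5. Mitotic genes included Plk1 at 296 ± 6.62 TPM, Top2a at 222 ± 6.83 TPM and Mki67 at 162 ± 8.05 TPM. Among the D cyclins, Ccnd1 had 260.5 ± 3.82 TPM, Ccnd2 155 ± 10.1 TPM and Ccnd3 117 ± 3.72 TPM, in an order that held without overlap between libraries.

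Transcription factors were read in 26 families with 429 genes, of which 247 (57.6%) passed 1 TPM in all 4 libraries, against 58.4% of all protein-coding genes. Tcf3, an E protein that pairs with tissue-specific basic helix-loop-helix factors, had the highest mean with 398, 406, 388 and 398 TPM. Tbx2, a T-box repressor of mesenchyme, had 333, 368, 406 and 434 TPM and Id3, an inhibitor of E proteins, 323, 419, 391 and 392 TPM. Replicate 1 was the lowest library for Tbx2 and Id3, and the ranges of all 3 genes overlap. Snai2 and Snai1, zinc finger repressors of epithelial genes, had 339 ± 9.09 and 243 ± 17.6 TPM, without overlap. Tead2, the highest of the genes for the DNA-binding partners of YAP, had 323 ± 5.46 TPM against 103 ± 1.49 TPM for Yap1 itself. From Etv5 down to Tbx4 the ranges of neighbours separated, and below that the 15 highest genes formed a chain of overlapping ranges.

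**Figure D2:**
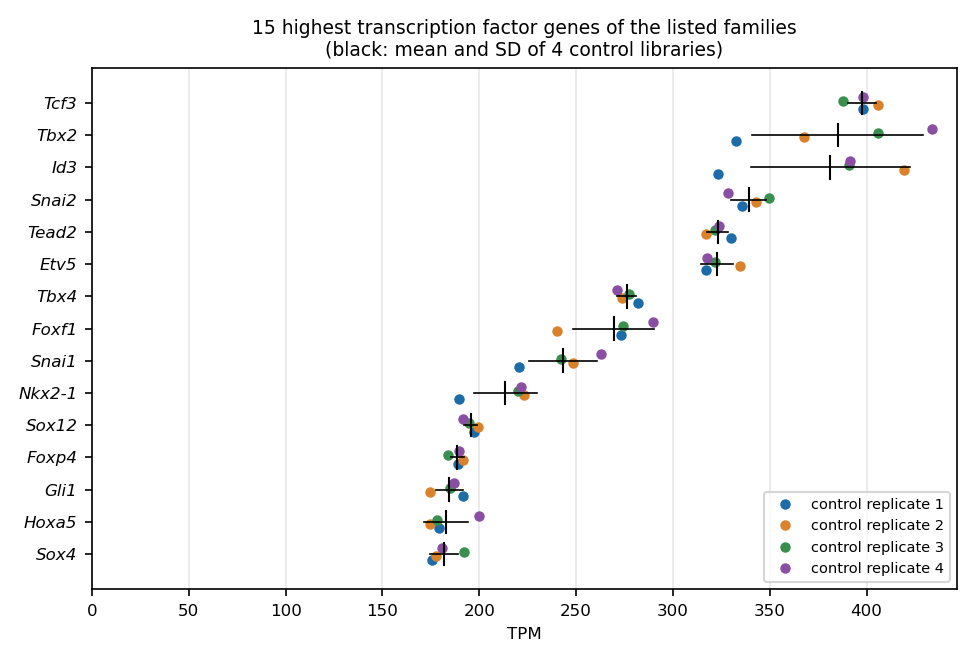
TPM (linear axis) of the 15 highest genes of the 26 transcription factor families, with 1 point per control library and a black mark for the mean ± SD. Tcf3, Tbx2 and Id3 overlap at 323 to 434 TPM, and a gap separates Etv5 from Tbx4.

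Within families, the leading member often stood clear of the rest. In the T-box family, Tbx2, Tbx4 and Tbx5 came in that order without overlap, and Tbx3 followed with 63.2 ± 2.19 TPM. Nkx2-1 held nearly the whole of the NKX family. In the GATA family, Gata5 measured 113, 116, 114 and 112 TPM, well above Gata6, the regulator of lung endoderm, at 31.1, 31.7, 35 and 33.3 TPM. Gata4 had 14.2 ± 1.26 TPM. The forkhead factors Foxf1, Foxp4 and the proliferation factor Foxm1 had 269 ± 21, 189 ± 3.3 and 118 ± 4.49 TPM. Among SOX genes, the related factors Sox12, Sox4 and Sox11 had 196 ± 3.35, 182 ± 7.24 and 61.3 ± 3.55 TPM, and the endothelial factor Sox18 73.8 ± 10.5 TPM.

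The Iroquois genes Irx1, Irx3 and Irx2 had 94.6 ± 5.74, 77.4 ± 9.79 and 73.8 ± 5.48 TPM, while Irx4 and Irx6 stayed under 1 TPM. Pbx2, a cofactor of HOX proteins, had 169.6 ± 4.13 TPM and Meis1 64 ± 2.71 TPM. Of ETS genes after Etv5, the repressor Erf had 139.9 ± 5.46 TPM and Ets2 102 ± 3.41 TPM. Thra, the thyroid hormone receptor alpha, led 49 nuclear receptors at 142 ± 5.27 TPM, and Nr2f2, a factor of veins and mesenchyme, had 81.5 ± 3.33 TPM. The 4 NFI genes all passed, from Nfia at 30.5 ± 1.47 TPM to Nfic at 75.3 ± 5.49 TPM. In the AP-1 family, Jund had 99.7, 125, 148 and 192 TPM and Jun 109.6, 136, 149 and 143 TPM, with replicate 1 the lowest for both. Fos, an immediate early gene, had 3.08 ± 0.525 TPM. The PAX family was the one family with no gene above 1 TPM: of 9 genes the highest was Pax9, a factor of pharyngeal pouches, at 0.115 ± 0.0341 TPM.

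HOX genes specify position along the body axis and lie in 4 clusters, in which genes with low numbers are expressed further forward. In these lungs 16 of 39 HOX genes passed 1 TPM in all 4 libraries, and most of them came from clusters A and B. Cluster A on chromosome 6 had 7 of 11 and cluster B on chromosome 11 had 7 of 10. Cluster C on chromosome 15 had 2 of 9, and cluster D on chromosome 2 had 0 of 9. Position 5 held the highest gene in both leading clusters. Hoxa5, whose CpG-rich window is printed above, measured 179, 174, 178 and 199.7 TPM, and Hoxb5 measured 128, 129.8, 129 and 148 TPM, with replicate 4 the highest library for both. Hoxb3 had 110.2 ± 2.81 TPM, Hoxa4 53.3 ± 4.54 TPM and Hoxb6 64.1 ± 5.76 TPM.

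No gene after position 8 reached a mean of 1 TPM. The highest mean there was 0.0437 TPM in cluster A (Hoxa9), 0.847 TPM in B (Hoxb9), 0.0257 TPM in C (Hoxc10) and 0.522 TPM in D (Hoxd9). In cluster A the step fell between Hoxa7, with 411 counts over the 4 libraries, and Hoxa9, with 5. In cluster B it fell between Hoxb8, with 939, and Hoxb9, with 45. Cluster D showed no such fall, since its highest genes were Hoxd8 and Hoxd9 and those at its front were lower. Hoxb1, at the very front of its cluster, had 12 counts and 0.248 ± 0.00943 TPM. Several of the scarce genes were highest in replicate 3, among them Hoxb9 with 0.422, 0.762, 1.68 and 0.528 TPM, Hoxd8 with 0.66, 0.572, 1.71 and 0.567 TPM and Hoxc6 with 0.301, 0.163, 0.976 and 0.242 TPM, on 45, 50 and 21 counts over the 4 libraries. HOX transcripts overlap on the same strand in places, and reads that overlapped several genes were not counted.

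**Figure D3:**
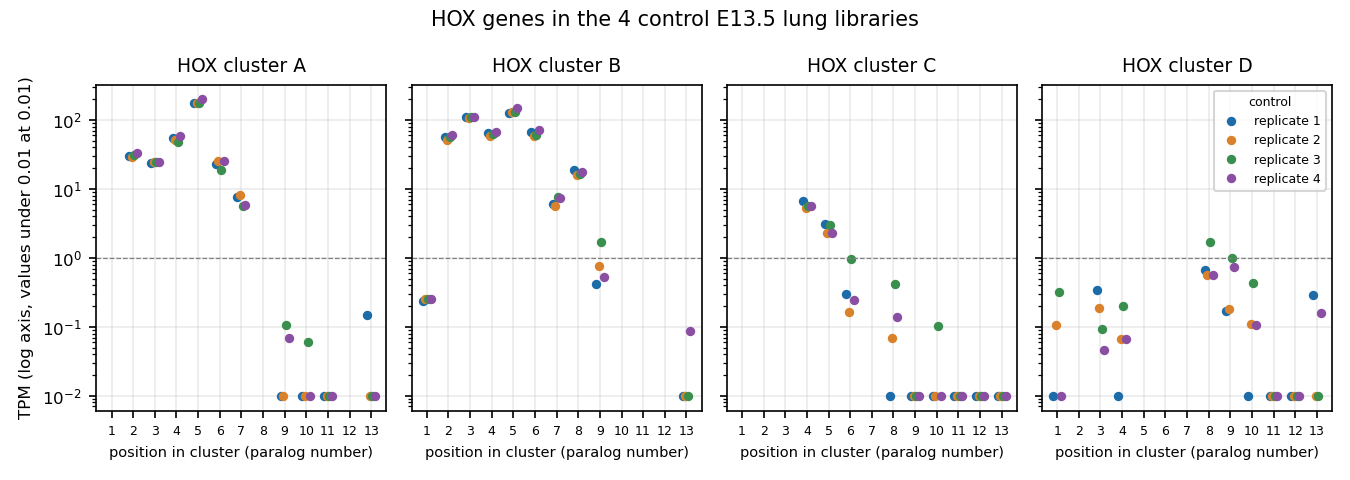
TPM (log axis, values under 0.01 drawn at 0.01) of HOX genes by their position in clusters A to D (not every gene is drawn), 1 point per control library, with a dashed line at 1 TPM. Clusters A and B are highest at position 5, with 174 to 200 and 128 to 148 TPM, and no gene after position 8 has a mean of 1 TPM.

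Signals, their receptors and their targets were read for 11 groups of pathways. The ligand lists also hold 4 retinoic acid synthesis enzymes and Fgf11, which is not secreted. Of the 121 genes of these lists, 67 (55.4%) passed 1 TPM in all 4 libraries, close to the 58.4% of all protein-coding genes. Among receptors 79 of 86 (91.9%) passed, among feedback and target genes 38 of 40 (95.0%) and among modulators 39 of 50 (78.0%). The highest ligand by far was Mdk, the heparin-binding growth factor midkine, with 1683, 1502, 1545 and 1668 TPM, or 41.0% of the summed TPM of all listed ligands. Its relative Ptn had 208, 180.2, 189 and 172 TPM, followed by Wnt2, Vegfa, the retinoic acid enzyme Aldh1a2 and Tgfb3. The place of Igf2 and the share of Mdk depend on how the exons of Igf2 are counted, as it is listed at 116 TPM and reached 308.5 TPM over its unshared exon bases alone, which would put it above Ptn. No receptor stood out in this way. Smo led with 194, 209, 202 and 201 TPM and held 4.93% of the receptor sum, and the next 5, Igf2r, Fzd2, Ednra, Notch3 and Pdgfrb, formed a chain of overlapping ranges.

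**Figure D4:**
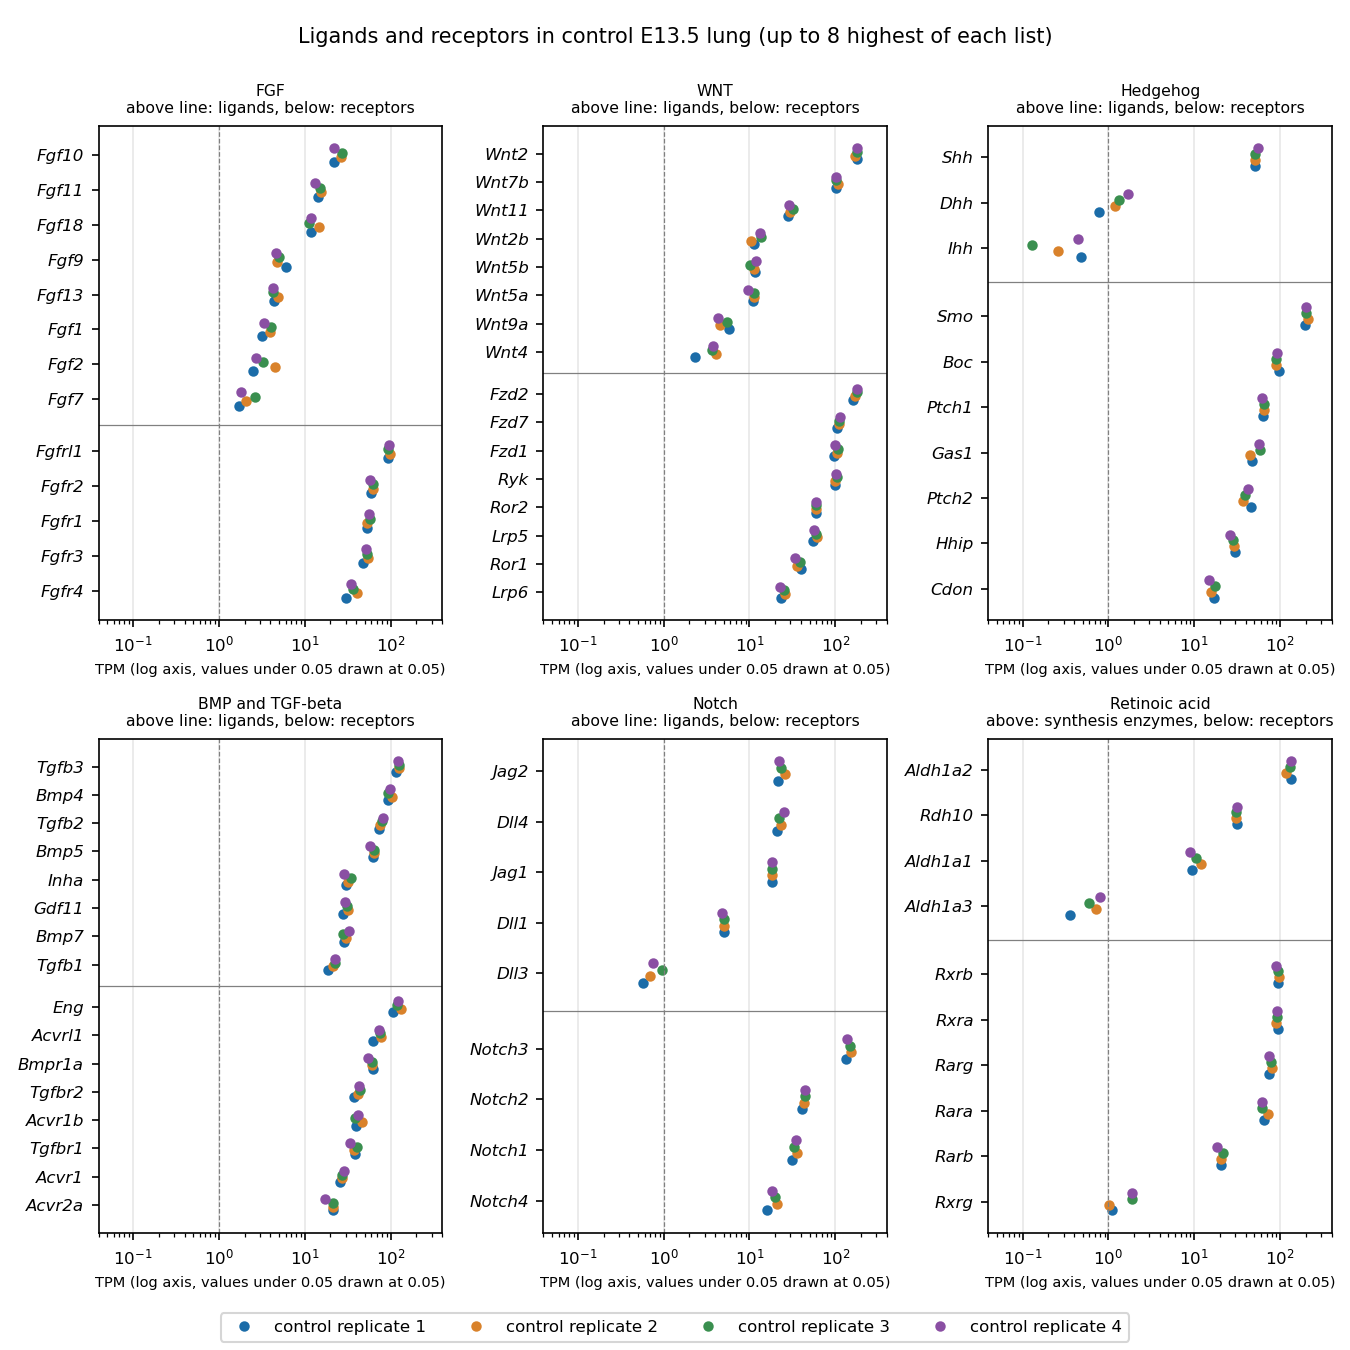
TPM (log axis) of up to 8 ligands (above the line in each panel) and receptors (below it) of 6 pathways, 1 point per control library, with a dashed line at 1 TPM. Ligands fall off from a few leading genes such as Wnt2 and Shh at 169 to 180 and 50.2 to 55.1 TPM, whereas receptors reach 194 to 209 TPM for Smo.

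FGF signalling drives outgrowth of the lung buds. Of 22 ligand genes 9 passed 1 TPM, and all were low. Fgf10, made by distal mesenchyme, led with 24.4 ± 2.78 TPM. Fgf18 had 11.9, 14.9, 11.2 and 11.9 TPM, Fgf9, made by epithelium and mesothelium, 6, 4.73, 5.1 and 4.68 TPM, and Fgf7 2.06 ± 0.422 TPM. Fgf11, a member that is not secreted, had 14.5 ± 1.04 TPM. Fgf8 and Fgf3 had 0.108 ± 0.138 and 0.0614 ± 0.0411 TPM, and Fgf4, Fgf6, Fgf15 and Fgf23 had 0 counts. All 5 receptor genes passed. Fgfrl1, which lacks the kinase domain, had 95.5 ± 2.8 TPM. Fgfr2, the receptor for Fgf10, had 59.8, 62.8, 62.9 and 57.2 TPM, Fgfr1 55.3 ± 2.05 TPM and Fgfr3 52.2 ± 3.33 TPM, with overlap between neighbours, and Fgfr4 35.5 ± 4.6 TPM. The 11 induced genes summed to 654 to 685 TPM, against 69 to 83.3 TPM for the ligand list with Fgf11 included. They ran from Etv5 at 323 ± 8.26 TPM through the phosphatase Dusp6 at 82.4 ± 3.29 TPM and the feedback inhibitor Spry2 at 56.2 ± 3.25 TPM to Spred3 at 6.23 ± 0.392 TPM.

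WNT ligands specify and expand the lung field. Here 9 of 19 passed 1 TPM. The mesenchymal ligand Wnt2 had 179.6, 169, 179 and 179 TPM, and the epithelial ligand Wnt7b 102, 107, 100.5 and 102 TPM. Wnt11 had 29.8 ± 1.87 TPM and Wnt5a, which acts on shape and length of the airways, 10.8 ± 0.795 TPM. The ranges of Wnt2, Wnt7b and Wnt11 did not overlap. Among receptors, 14 of 15 passed, led by Fzd2 with 159, 168, 179 and 180.3 TPM, then Fzd7 with 109 ± 4.02 TPM and Fzd1 with 102 ± 4.82 TPM. The coreceptors Lrp5 and Lrp6 had 58.1 ± 3.08 and 24.3 ± 1.51 TPM. Of modulators, the antagonist Sfrp2 had 137 ± 5.16 TPM and the agonists Rspo1 and Rspo2 66.6 ± 6.62 and 28.8 ± 1.94 TPM. Notum, which removes the lipid of WNT proteins, had 18.2 ± 2.3 TPM. The target Axin2 had 44.9, 49.3, 49.6 and 44.9 TPM, and the nuclear partners Tcf7 and Lef1 had 122 ± 3.29 and 18.6 ± 1.27 TPM.

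Hedgehog signal passes from epithelium to mesenchyme. Shh was its only ligand above 1 TPM in all 4 libraries, with 50.5, 50.2, 50.4 and 55.1 TPM, and Dhh and Ihh had 1.25 ± 0.371 and 0.327 ± 0.164 TPM. All 7 receptor genes passed. Smo, which carries the signal across the membrane, had 201 ± 6.38 TPM, the coreceptor Boc 92.3 ± 3.54 TPM and Ptch1, the receptor and target, 63.2, 63.8, 65.3 and 61.6 TPM. Hhip, a target that traps the ligand, had 28.2 ± 1.3 TPM. Gli1, a target and effector, had 192, 175, 185 and 187 TPM, above Gli2 at 43.4 ± 2.32 TPM and Gli3 at 33.1 ± 0.601 TPM in every library.

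In the BMP and TGF-beta families, 14 of 27 ligand genes passed. Tgfb3 led with 117, 127, 125 and 122 TPM, followed by Bmp4, of the tips and the mesenchyme, with 93.8, 104, 93.9 and 99.8 TPM. Tgfb2 and Tgfb1 had 78.2 ± 4.03 and 21.4 ± 1.82 TPM, Bmp5 and Bmp7 62.3 ± 3.05 and 30 ± 1.96 TPM, and Bmp2 3.56 ± 0.574 TPM. Gdf1 is listed at 0 counts, but all of its exon bases are shared with Cers1 on the same strand, so its reads could not be counted. Receptors were led by the endothelial pair Eng and Acvrl1 at 121 ± 9.68 and 72.3 ± 6.73 TPM, and Bmpr1a had 59.4 ± 3.55 TPM. Fstl1, a secreted binding protein, had 384, 414, 419 and 388 TPM. Nog and Grem1, antagonists of BMP, had 8.17 ± 0.398 and 0.964 ± 0.335 TPM. The targets Id3, Id1 and Id2 had 381 ± 40.9, 171 ± 36.3 and 146 ± 9.02 TPM, and for Id1 replicate 1 was the lowest library with 119, 195, 172 and 198 TPM.

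Notch ligands were modest. Jag2, Dll4 and Jag1 had 23.3 ± 2.15, 22.7 ± 1.81 and 18.2 ± 0.175 TPM, and Dll1 had 4.95 ± 0.138 TPM. All 4 receptors passed. Notch3, of mural cells, stood clear of Notch2 at 43 ± 1.36 TPM and Notch1 at 33.8 ± 1.88 TPM, and the endothelial Notch4 had 18.7 ± 2.05 TPM. The target Hes1 had 60.2, 62.6, 69.5 and 72.6 TPM, Heyl 50.1 ± 2.41 TPM and Hey1 19.4 ± 0.545 TPM, while Hes5 was near 0 at 0.0359 ± 0.0719 TPM. In the retinoic acid pathway, Aldh1a2 and the retinol dehydrogenase Rdh10 had 128 ± 7.93 and 31.1 ± 0.741 TPM, and Aldh1a3 0.617 ± 0.196 TPM. The receptors Rxrb, Rxra, Rarg and Rara had 93.7 ± 3.21, 91.7 ± 1.79, 76.7 ± 3.29 and 64.6 ± 4.59 TPM. Rarb, a receptor that is also a target, had 20.2, 20.5, 21.8 and 18.4 TPM. Cyp26b1, which breaks retinoic acid down, had 20 ± 0.7 TPM, and its relatives Cyp26a1 and Cyp26c1 had 0.264 ± 0.141 and 0.0539 ± 0.0624 TPM.

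Vascular and trophic factors completed the set. Vegfa had 127, 151, 141 and 146 TPM, Vegfb 97 ± 8 TPM, Vegfd 61.8 ± 6.82 TPM and Vegfc 25.1 ± 2.06 TPM. Their receptors Kdr, Flt4 and Flt1 had 42.4 ± 1.37, 23.6 ± 1.47 and 8.2 ± 0.68 TPM, and Tie1 led its list at 122 ± 2.97 TPM. Of the PDGF genes, Pdgfb, Pdgfa and Pdgfc had 40.2 ± 1.24, 32.5 ± 3.21 and 25.5 ± 1.24 TPM, and the receptor Pdgfrb stood above Pdgfra in every library. Igf2, the imprinted fetal growth factor, is listed at 103, 127, 118 and 118 TPM. That value is uncertain, because 62.8% of its exon bases are shared with Gm49394 on the same strand and reads there were not counted. Igf2r, which clears the ligand, had 186 ± 8.09 TPM, and Igfbp5, Igfbp4 and Igfbp2, which bind it, had 450.2 ± 8.3, 344 ± 10.8 and 256 ± 26.2 TPM in an order without overlap.

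Of 11 EGF family ligands 3 passed 1 TPM in all 4 libraries, with Nrg2 the highest at 12.5 ± 0.968 TPM and Hbegf at 8.61 ± 0.634 TPM. Among the receptors, Erbb2 had 93.1 ± 3.85 TPM, Erbb3 36.3 ± 2.22 TPM and Egfr 8.9 ± 0.543 TPM. Erbb4 had 0.3 ± 0.0516 TPM. The chemokine Cxcl12 and its receptor Cxcr4 had 52.1 ± 1.19 and 58.9 ± 2.65 TPM. The endothelin receptor Ednra, of mesenchyme and smooth muscle, had 158, 162, 166 and 149.9 TPM, against 11 ± 0.394 TPM for the ligand Edn1 and 23.6 ± 0.393 TPM for Edn3. Kitl and Kit had 28.1 ± 2.69 and 21.3 ± 1.85 TPM. Hgf and Gdnf, ligands for Met and Ret, had 0.277 ± 0.128 and 0.679 ± 0.203 TPM, with 9.24 ± 0.798 TPM for Met and 6.58 ± 0.808 TPM for Ret.

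The 4 libraries were much alike. Over genes with a minimum count summed over a pair of libraries, whatever their TPM, counts differed by 2.92 to 4.49 times the variance that sampling gives. Over 12009 genes with a mean of at least 5 TPM, the median difference of a pair was 0.07 to 0.09 on the log2 scale. No library was thus a mere resampling of another. These values cannot tell libraries of separate embryos from separate libraries of the same RNA. The spread beyond sampling was expressed as a biological coefficient of variation, the square root of the variance left after subtracting the sampling part, divided by the mean. Its median was 3.21%, and 3275 genes had no variance beyond sampling. It was 4.58% from 5 to 10 TPM and 2.94% from 100 to 1000 TPM. A coefficient of 0.25 or more was reached by 0.662% of protein-coding genes with a mean of at least 5 TPM. Among list members above that mean it was reached by 7 genes of the cell type lists. Even over all 204 genes of these lists that is a larger share than 0.662%. The lists were chosen with earlier results of these data known, so this share describes the lists alone. Wif1, of 50 modulators, and Jund, of 429 transcription factors, also reached it. No listed ligand, receptor or target reached it, which in lists of this size is near that background.

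A coefficient of at least 0.25 was found for 276 genes, or 2.3%. Most of these were poorly measured: 211 had a mean under 100 counts per library, 105 were pseudogenes and 87 were under 200 bases long. Protein-coding genes with a settled name made up 63. Of the 20 most variable named genes, 10 were short RNAs of the miRNA, snoRNA and mitochondrial tRNA classes, for which a library held at most 20 counts. Among the protein-coding genes, several differed by far more than their neighbours in level, some of them on low counts. The labels name no treatment or stage that separates the libraries.

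Hba-a2, the second adult alpha-globin gene, had 93.6, 0.883, 141 and 0.874 TPM, from 345, 3, 480 and 3 counts. Replicates 2 and 4 were near 0, while the near-identical Hba-a1 showed 3062, 4533, 3270 and 3355 TPM. Hmga1b, a copy of the chromatin protein gene Hmga1, had the opposite libraries high, with 3.23, 81.2, 2.17 and 75.3 TPM, against 425, 369, 404 and 377 TPM for Hmga1. Reads that map to several places were not counted, so both pairs of copies are uncertain. Rpl29, a ribosomal protein gene with many pseudogenes, had 183, 156, 596 and 160.2 TPM, high in replicate 3 alone. Eif3j2 and Eif3j1, copies of a translation factor subunit, ran in opposite directions, with 27.3, 37.6, 9.47 and 22.1 TPM and 20, 16.4, 33.8 and 27.7 TPM.

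Genes without such copies also differed. Mgp, the matrix Gla protein that keeps cartilage and vessels from calcifying, had 68.9, 78.9, 67.7 and 245 TPM, more than 3 times higher in replicate 4 than in any other library. S100a9 and S100a8, calcium-binding proteins of neutrophils, had 3.81, 3.76, 33 and 16.8 TPM and 1.56, 0.848, 13.3 and 8.68 TPM, with replicates 3 and 4 above 1 and 2. These levels rest on 11, 10, 88 and 45 counts for S100a9 and 6, 3, 47 and 31 counts for S100a8. Gem, a small GTPase, had 33.6, 19.4, 15.1 and 15.2 TPM, highest in replicate 1. Myl7, the atrial myosin light chain, had 304 counts over the 4 libraries and was lowest in replicate 4, as given above with the other heart muscle genes.

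**Figure D5:**
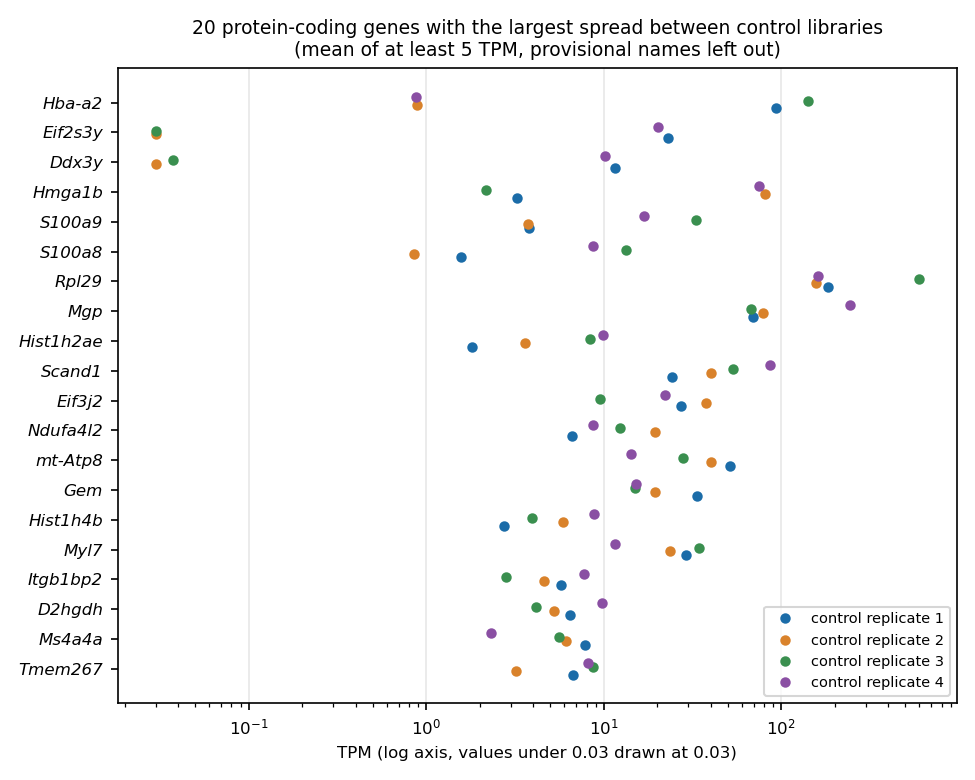
TPM (log axis, values under 0.03 drawn at 0.03) of the 20 protein-coding genes with a settled name and the largest coefficient of variation, 1 point per control library. Hba-a2 is high in replicates 1 and 3, Hmga1b in replicates 2 and 4, Rpl29 in replicate 3 and Mgp in replicate 4.

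Genes of the sex chromosomes split the libraries. The Y-linked genes Eif2s3y and Ddx3y had 22.9, 0, 0 and 20.2 TPM and 11.6, 0, 0.0377 and 10.2 TPM, and Kdm5d and Uty had 5.41, 0, 0 and 5.84 TPM and 2.55, 0, 0 and 2.7 TPM. All 4 were found in replicates 1 and 4 and were at or near 0 in replicates 2 and 3. Xist, the RNA that silences an X chromosome in females, had 77.2, 169.6, 168 and 67.5 TPM, so it was present in all 4 libraries and lower in the pair with Y-linked counts. The labels do not give the sex of the embryos or whether embryos were pooled.

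A smaller shift ran with base composition. In 11 protein-coding genes of high spread, replicate 1 was the lowest and replicate 4 the highest library, among them Scand1 with 24.1, 40.3, 53.7 and 86.2 TPM and Jund. The median GC content of their transcripts was 59.5%, against 50.1% for all protein-coding genes with a mean of at least 5 TPM. The 7 genes with the reverse order, such as mt-Atp8 with 51.5, 40.4, 27.9 and 14.3 TPM, had a median of 44.1%. Over the 35 protein-coding genes with at least 65% GC, the median deviation from the mean of the libraries was -0.19, -0.06, 0.08 and 0.20 on the log2 scale in replicates 1 to 4. For the 2704 genes with 45 to 50% GC it was between -0.01 and 0.02. The part of base composition in the levels of single genes was not tested.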

How the data were processed

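Whole lungs at E13.5 were sequenced, and 4 control columns of the table were used, while the 4 columns of the mutant libraries were left out. Per the labels' protocols, RNA was extracted with TRIzol LS and a Qiagen column, and stranded mRNA libraries were prepared with an Illumina kit. The authors deposited raw counts of read pairs per gene, with the exon length in bases. Per the file headers, they were made by featureCounts 1.6.4 for paired reads with strand option 2 and GENCODE vM25, with no option that keeps multi-mapped reads or reads overlapping several genes. The submitters' processing notes also name STAR, DESeq2 and the build GRCm38 (mm10), and other versions are not given in the sources used here.

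TPM was computed from the deposited counts and exon lengths, per library, and averaged over 4 libraries. All 55401 genes entered, of which 55141 had a symbol in the name table given here, and gene types came from GENCODE vM21. Exon length is the union over all transcripts of a gene, so a gene with long rare transcripts has a TPM that is too low. On the same strand, 785 genes had no exon base of their own and could receive few or no counts. Depth was 17799899 to 19032389 counts per library.

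Spread was computed from counts with TMM scale factors (a trimmed mean of log ratios between libraries) from edgeR 4.0.16 under R 4.3.3, for genes with a mean of at least 5 TPM. The steps were tested on simulated data. Alternatives were other lengths, totals, thresholds, filters, scaling by DESeq2 1.42.0, tagwise dispersion in edgeR and leaving out each library. No test between groups was made, since the analysis covers 1 group. Single libraries that lie apart were sought with Dixon's test.

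Genes named by rule were the 20 with the highest mean, up to 4 leading members of each list or family, low defining markers, the leading transcription factors, ligands and receptors, Myrf, the HOX genes and the 20 most variable genes. Further list members, the protein-coding genes of high spread, Xist, Kdm5d, Uty and Hmga1 were chosen after their values were seen. The lists and the members were chosen with earlier results of these data known. Spry3, of the FGF targets, was not in the table. Promoter windows came from RefSeq, GRCm38.p6. A few listed genes are counted in the totals but not reported here.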

Additional observations from a re-analysis of the deposited data

Results flagged for a closer look

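For 369 genes named by rule or in the text with a mean of at least 1 TPM, and for 49 summed lists other than the transcription factor families, the 4 libraries were checked for 1 that lies apart from the rest, by the gap to its nearest neighbour as a share of the whole range (Dixon's test at the 95% level). Of 418 values 27 passed, and chance passes about 1 in 20. The 20 genes chosen as most variable between these libraries hold 4 of them, and 23 of the other 398 values passed. Further genes were named with their values known and some sums repeat a member, so the values are not independent and the count is a description. Replicate 1 was the library apart in 9, replicate 2 in 7, replicate 3 in 5 and replicate 4 in 6.

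In replicate 1, the liver list summed to 3.07 TPM against 9.13 to 10.2 TPM in the other libraries, and the VEGF and angiopoietin ligands to 341.0 TPM against 377 to 380.2 TPM. The lung factor Nkx2-1 was at 189 TPM there against 219.9 to 223 TPM. Plvap, an endothelial membrane protein, was at 159.5 TPM against 183.5 to 188 TPM, and the ETS factors Erf and Elk3 at 132 and 98.7 TPM against 142 to 143 and 102 to 103 TPM. Smad3 was at 63.5 TPM against 67.0 to 67.6 TPM. Higher in replicate 1 were mt-Nd1, at 9820 TPM against 8917 to 9027 TPM, and Mir7013, at 15.1 TPM against 2.70 to 2.73 TPM, on 6 counts against 1 in each other library.

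In replicate 2, Wnt2 was at 169 TPM against 179.3 to 179.6 TPM and Lef1 at 16.7 TPM against 19.2 to 19.3 TPM, both lower there. The mesothelial factor Wt1 was also lower in replicate 2, at 9.82 TPM against 11.4 TPM in each other library, and Lamp3 higher at 4.04 TPM against 3.04 to 3.13 TPM. Tgfa, Stat5b and Col2a1 were higher in that library, with 4.38, 34.5 and 54.7 TPM against 3.83 to 3.89, 31.4 to 31.9 and 50.9 to 51.3 TPM. In replicate 3, Krt5 was at 7.31 TPM against 0.165 to 0.715 TPM and Twist1 at 5.42 TPM against 1.31 to 1.89 TPM. Rpl29 was in that library at 595.5 TPM against 156 to 183 TPM, Egfr at 9.71 TPM against 8.56 to 8.75 TPM, and mt-Tp at 17.6 TPM against 0 to 2.90 TPM on 7 counts in all.

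In replicate 4, Mgp was at 245 TPM against 67.7 to 78.9 TPM. Shh was at 55.1 TPM against 50.2 to 50.5 TPM, so that the Hedgehog ligands summed to 57.2 TPM against 51.7 to 51.8 TPM. Hoxb5 was at 148 TPM against 128 to 129.8 TPM, Prox1 was lower at 1.99 TPM against 2.52 to 2.6 TPM, and Dll1 at 4.75 TPM against 5.02 TPM in each of the others.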

How the results depend on the processing

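No paired analysis was possible because only 1 group was used. The number of genes at 1 TPM or more in all libraries, 15008, stayed within 1.5 times under every alternative run, from 12337 with TMM-scaled counts per kilobase and unit of depth to 16362 at a threshold of 0.5 TPM, and was 15173 to 15222 when each library was left out. The share of the 20 highest genes, 12.07%, became 13.21% with 200 bases taken off each length and 9.46% with mitochondrial and hemoglobin genes left out of the total, and was 11.99% to 12.13% without each library.

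The count of genes with a coefficient of at least 0.25 depended on the filter. It was 276 at a mean of 5 TPM, 1061 at 1 TPM, 81 at 20 TPM and 4367 with no filter. It was 63 for protein-coding genes of at least 200 bases with settled names and 65 for genes with at least 100 counts per library, both alternatives chosen after seeing the data, and 22 by edgeR's tagwise dispersion, which draws genes toward a common trend. It was 262 to 317 without each library. The median coefficient, 3.21%, was 2.07% with no filter, 4.97% by tagwise dispersion and 2.56% to 2.98% without each library.

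In 75 lists and families the highest gene stayed the same under each alternative length, total and unit. Without replicate 2 it stayed the same in 72, with Cd68 in place of C1qb, Dll4 of Jag2 and Rxra of Rxrb, and without replicate 4 in 74, with Jun in place of Jund. Of 439 levels, 8, all of noncoding genes, moved by over 1.5 times with 200 bases taken off each length. With shared exon bases left out, a choice made after seeing the data, 3 did: Igf2 went from 116 to 308.5 TPM, and the others, both HOX genes of cluster D, stayed under 1 TPM. The TMM-scaled counts are another unit and gave 0.285 to 0.290 times each level. Without replicates 1, 2, 3 and 4 in turn, 7, 8, 20 and 6 levels moved by over 1.5 times, and 23 of these 41 had a mean under 1 TPM. Of the rest, 6 were short RNAs. Without replicate 1, Eif2s3y and Ddx3y became 6.73 and 3.41 TPM, and without replicate 2 Hmga1b became 26.9 TPM. Without replicate 3, Hba-a2 became 31.8 TPM, Rpl29 167 TPM, S100a9 8.11 TPM, S100a8 3.7 TPM, Krt5 0.499 TPM and Twist1 1.59 TPM. Without replicate 4, Mgp became 71.8 TPM, Kdm5d 1.8 TPM and Uty 0.85 TPM. Depth limits the genes near the floor, and among genes from 5 to 10 TPM 7.16% had a coefficient of at least 0.25, against 0.655% from 100 to 1000 TPM.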
